A study of Mus musculus with 4 samples.

Results

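H3K27me3 peaks that lay upstream of a gene, but over 3 kb and up to 50 kb away from it, were examined in erythro-myeloid progenitors (EMPs) of the mouse yolk sac. They were taken from the peak list of the library made from 15000 EMPs. A peak was a member when it lay on chromosomes 1 to 19, was narrower than 2000 bp, and carried the location category upstream and a distance within these limits in the deposited annotation. Of 15282 peaks in that list, 2362 met the rule, which was 15.5% of the peaks and 6.09% of the bases they covered. The members were thus chosen by their measured width and distance, beside category and chromosome, and these are given only as a description.

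EMPs are the KIT+ CD41+ CD16/32+ progenitors that arise from hemogenic endothelium in the yolk sac. To infer the genes that the histone methyltransferase Ezh2 marks in these cells, the study profiled H3K27me3 by CUT&RUN, in which an antibody guides a nuclease to the mark and the released DNA fragments are sequenced. There were 4 libraries from E10.5 yolk sacs of the C57BL/6 strain: H3K27me3 and control IgG from 500 EMPs, and the same pair from 15000 EMPs. The genotype label of every group gives Wild type beside Ezh2fl/fl and Tie2-Cre+/+ (a Cre driven by the Tie2 promoter, which is active in endothelium), and the study's wild-type reading was followed for all groups. No treatment was named. Each group held 1 library, so differences between the libraries have no replicate check.

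The 500-EMP and the 15000-EMP libraries also differed in PCR cycles (17 and 16), in read length (76 and 59 bp), in the instrument, in the peak-calling threshold (p of 0.01 and 0.05) and, per the study's methods, in sequencing depth and in the share of reads aligned, both lower for 500 EMPs. Cell number and these settings cannot be told apart. The peak lists used here give positions with no height or read count, so a peak was present or absent. A mark carried by some of the cells and a weak mark in all of them cannot be told apart either.

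H3K27me3 is placed by Polycomb repressive complex 2, whose catalytic subunit is Ezh2, and marks silent genes, often those of developmental regulators. It is typically densest over CpG-rich gene starts and can spread from there over many kilobases. Upstream stretches may thus belong to the flank of such a domain or stand on their own.

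To show how different the DNA under the members was, 240 bases from the centre of 4 wide members are printed from the plus strand of GRCm38, with each CG dinucleotide in capitals. They are the members with the most and the fewest CG per 100 bp among the 20 widest that overlapped a 500-EMP peak and the 20 widest that did not, after members whose central stretch met an annotated UTR had been passed over, which left out a Ube2m member among those not recovered. The Gnasas1 member (chr2:174299779-174300018 is shown) lay in a coding exon of Gnas, which encodes a G protein alpha subunit, and held 23 CG in the stretch shown. The Gm21188 member (chr13:120065534-120065773) held 0. Both overlapped 1 peak of the 500-EMP list. The Gbx2 member (chr1:89941852-89942091), upstream of a homeobox gene of the midbrain-hindbrain boundary, held 12 CG, and the Nt5c1a member (chr4:123195920-123196159), upstream of a cytosolic nucleotidase gene, held 0. Neither overlapped a 500-EMP peak. The Gm21188 member lies in sequence with a median of 2 copies in the genome, so its position is uncertain.
Gnasas1: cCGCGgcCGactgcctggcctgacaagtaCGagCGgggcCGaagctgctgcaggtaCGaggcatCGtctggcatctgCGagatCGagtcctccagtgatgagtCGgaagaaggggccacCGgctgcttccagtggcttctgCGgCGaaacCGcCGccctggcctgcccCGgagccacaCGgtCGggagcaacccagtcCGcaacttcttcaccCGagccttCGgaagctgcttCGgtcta
Gm21188: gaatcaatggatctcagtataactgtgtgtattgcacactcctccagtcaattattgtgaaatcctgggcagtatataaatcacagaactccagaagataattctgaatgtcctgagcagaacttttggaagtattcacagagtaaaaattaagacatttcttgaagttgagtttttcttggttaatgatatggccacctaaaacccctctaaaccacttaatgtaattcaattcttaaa
Gbx2: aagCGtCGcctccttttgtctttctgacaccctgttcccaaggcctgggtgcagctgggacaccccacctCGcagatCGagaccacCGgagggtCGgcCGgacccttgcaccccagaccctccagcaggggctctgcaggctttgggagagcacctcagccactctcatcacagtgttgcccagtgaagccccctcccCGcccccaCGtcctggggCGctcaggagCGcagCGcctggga
Nt5c1a: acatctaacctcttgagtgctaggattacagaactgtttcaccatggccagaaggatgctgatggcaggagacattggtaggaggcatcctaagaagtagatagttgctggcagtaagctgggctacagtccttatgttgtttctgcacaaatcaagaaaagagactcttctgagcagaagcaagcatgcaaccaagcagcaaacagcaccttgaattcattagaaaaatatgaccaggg

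Most members were short and lay in the near part of the permitted range. Widths ran from 171 to 1996 bp with a median of 456 bp, and 1282 members were below 500 bp, 639 were of 500 bp to below 1000 bp (the middle class) and 441 of 1000 bp or more (the widest class). Distances ran from 3006 to 49937 bp with a median of 12818 bp. The 3 members nearest to the lower limit were annotated to Tent5b and Shisal1, both at 3006 bp, and Skor1 at 3007 bp. Just outside it were peaks of D930007P13Rik and Kdelr3 at 2999 bp and Cdh1 at 2994 bp. At the upper limit, members of Hnrnpa3, Ctnna1 and Usp6nl lay at 49937, 49890 and 49786 bp, and the next peaks outside were those of Hey1, Kdm7a and 4930555G01Rik at 50118, 50251 and 50420 bp. At the width limit, members of Mir129-1, Trp53i11 and Shkbp1 were 1996, 1990 and 1989 bp wide, and the peaks just outside were those of Gm11729, 1700006H21Rik and AF067061 at 2000, 2010 and 2011 bp. In all, 418 autosomal upstream peaks at the same distances were 2000 bp or wider and were left out by the rule.

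**Figure D1:**
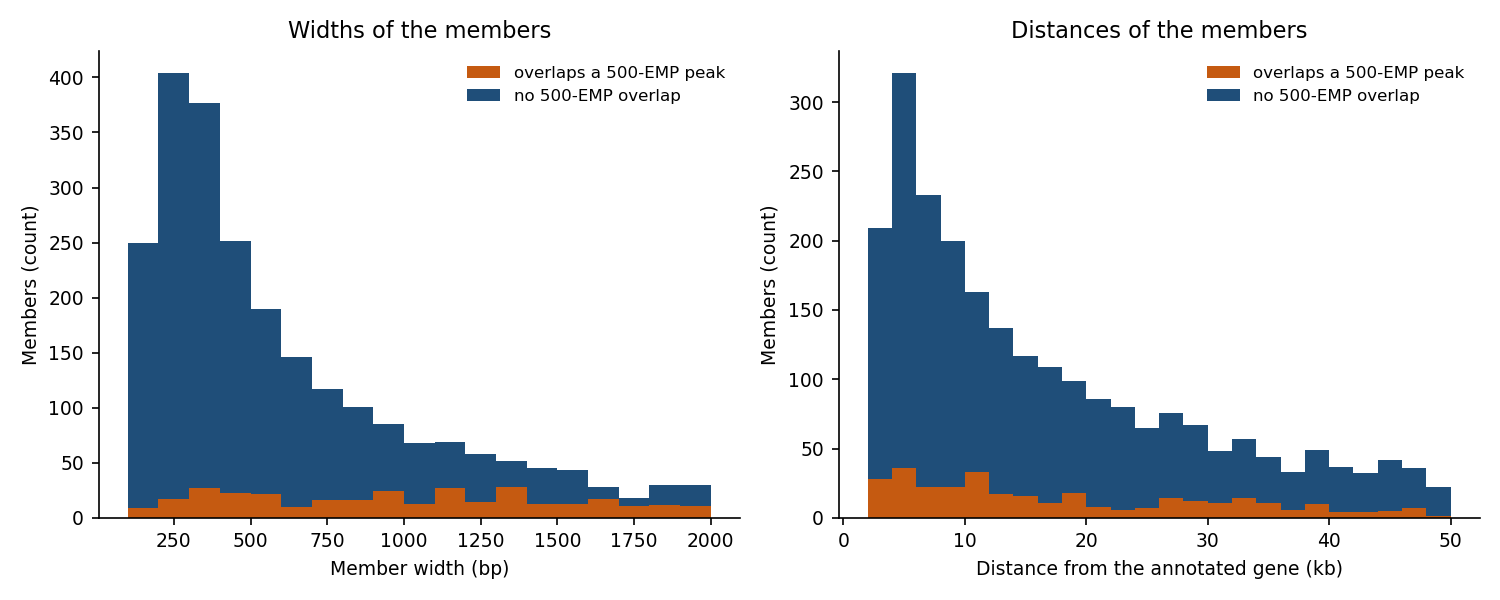
Stacked counts of the 2362 members by width (left, bp) and by distance from the annotated gene (right, kb), with the 323 members that overlapped a 500-EMP peak in orange and the others in blue. Most members are narrow and close, and the orange share grows with width but shows no such steady growth with distance.

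The category was checked against GENCODE vM21. The annotated gene was found for 2361 of the 2362 members (the exception was 4933409K07Rik), and the deposited distance was within 10 bp of the distance to the GENCODE gene start for 2261 of these (95.8%). A member was not always far from every gene: 511 members (21.6%) lay within 3 kb of some GENCODE transcript start and 82 (3.47%) covered one, although only 21 (0.889%) lay within 3 kb of the start of a protein-coding gene. Further, 554 members (23.5%) overlapped the body of a protein-coding gene, since a place upstream of one gene can be inside its neighbour. The annotated gene was also the nearest protein-coding gene for 1888 members (79.9%).

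The members were annotated to 1098 genes. Of these, 918 were protein-coding, 65 lincRNAs, 55 antisense RNAs and 32 miRNAs, and the rest belonged to other classes or were unmatched. A gene had 1 member in 548 cases, 2 to 4 in 460 cases and 5 or more in 90 cases.

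Most members were annotated to genes that also had another H3K27me3 peak within 3 kb of the start. A start peak is here a peak, other than the member itself, that comes within 3 kb of the GENCODE gene start on either side. For 1478 of 2361 members (62.6%, 95% Wilson interval 60.6 to 64.5%) the annotated gene had a start peak in the 15000-EMP list, and for 1250 (52.9%, 50.9 to 54.95%) the 500-EMP list held one. Over all 20807 autosomal protein-coding genes the background was 17.5% by 15000-EMP peaks and 10.3% by 500-EMP peaks. Peaks tend to lie near marked genes, however, and over all 11231 narrow autosomal peaks the share with a 15000-EMP start peak at the annotated gene was 68.4% (67.6 to 69.3%), higher than among the members. The start base itself was covered by a 15000-EMP peak for fewer, 920 of the 2361 members (39.0%, 37.0 to 41.0%). Counted once per gene, 656 of 1097 genes (59.8%, 56.9 to 62.7%) had a 15000-EMP start peak. Among genes with 5 or more members the share was 63 of 90 (70%, 59.9 to 78.5%), and among those with 1 member 323 of 547 (59.0%, 54.9 to 63.1%), so the intervals overlapped. All intervals here cover counting error only and treat neighbouring peaks as independent, which they are not.

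The share with a start peak fell with distance. It was 83.7% (79.8 to 87.0%) for 399 members at up to 5 kb, 73.6% (69.8 to 77.1%) for 564 members at over 5 to 10 kb and 60.6% (56.7 to 64.3%) at over 10 to 20 kb. Beyond, it was 48.7% (43.6 to 53.7%) for 374 members at over 20 to 30 kb and 42.3% (37.5 to 47.1%) for 400 members at over 30 to 50 kb. The intervals of the last 2 classes overlapped and those of the first 4 did not. The interval of the farthest class overlapped that of narrow peaks over 50 kb from genes (39.3%, 36.7 to 41.9%).

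**Figure D2:**
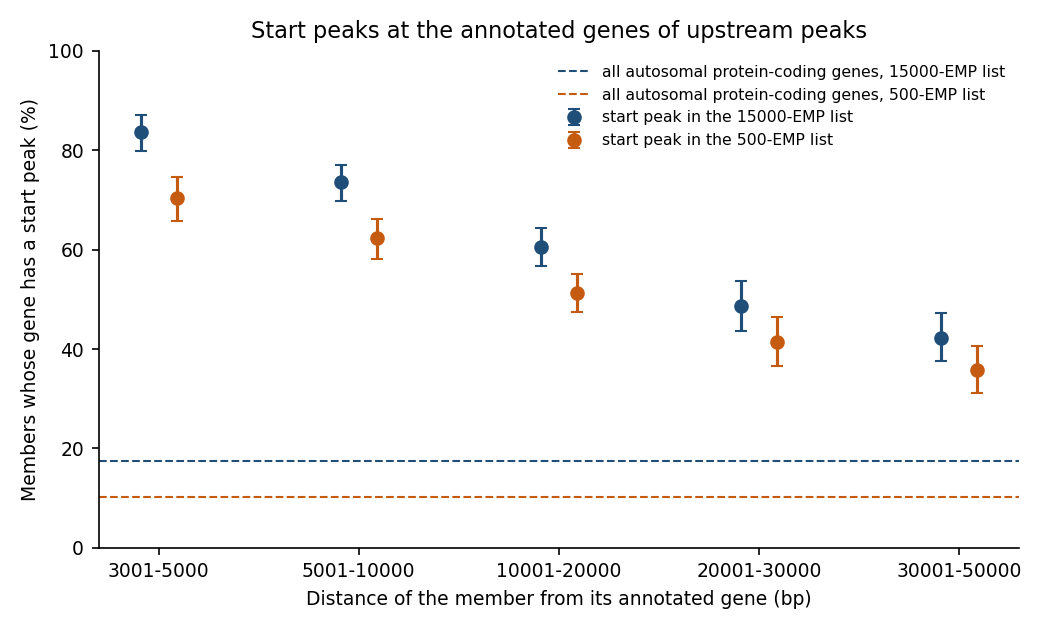
Percent of members whose annotated gene has a start peak, by distance of the member from the gene in bp, for start peaks of the 15000-EMP list (blue) and of the 500-EMP list (orange), with 95% Wilson intervals. Dashed lines give the share over all autosomal protein-coding genes, and the 15000-EMP points fall from 83.7% in the nearest class to 42.3% in the farthest.

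Members rarely stood alone. The median gap to the nearest other 15000-EMP peak was 534 bp, and 1940 members (82.1%, 80.5 to 83.6%) had another peak within 3 kb, while 422 had none. Peaks with gaps of at most 3 kb were joined into runs, and 1289 runs held a member. A run with a peak of 2000 bp or wider held 1053 members (44.6%), and a run with a peak across a gene start held 591 (25.02%). Nearness to other peaks did not set the members apart, since 82.2% of all narrow autosomal peaks lay within 3 kb of another.

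The 10 genes with the most members held 136 of them, and 8 of these genes had a 15000-EMP start peak. The last place was a tie of 5 genes with 10 members each, taken by Pla2g2c for its larger total width. Of the others, Ptk2, Rhou and Afdn had a 15000-EMP start peak and Gm30498 had none. Rassf10, which encodes a Ras-association domain protein, had 21 members between 4237 and 39941 bp upstream (chr7:112913844-112949724). They were 177 to 1523 bp wide, 7 overlapped a 500-EMP peak, and 15000-EMP peaks covered 51.4% of the span against 11.2% for 500-EMP peaks. The 7 were not the nearest ones: 6 lay from 12583 to 25299 bp upstream and 1 at 39941 bp. Parva, which encodes the focal adhesion protein alpha-parvin, and the noncoding gene 4930543E12Rik lie nearby on chromosome 7 and had 13 and 15 members. Parva had 3 recovered members and 4930543E12Rik 0. Together with 6 members of Tead1, none recovered, this stretch of 779.6 kb (chr7:112389519-113169156, chosen after its values were seen) held 55 members of 4 genes, 10 of them recovered.

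Pard3, a scaffold of cell polarity, had 15 members at 7061 to 26364 bp, of which 1 was recovered. Osmr, the oncostatin M receptor, had 12 members at 4164 to 45637 bp with 4 recovered, and Casr, the calcium-sensing receptor, had 11 at 11683 to 38662 bp with 4 recovered. Pla2g2c, a secreted phospholipase, had 10 members at 4362 to 21410 bp with 2 recovered. Each of these genes also had a start peak.

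The exceptions among the 10 were Dusp6 and Usp6nl, whose members formed clusters far from a gene with no start peak in either list. Dusp6, a phosphatase of ERK kinases, had 11 members packed between 26946 and 39417 bp upstream (chr10:99223347-99236284). They were 273 to 1262 bp wide and covered 58.4% of that span, and the 500-EMP list held 0 peaks there. Usp6nl, a GTPase-activating protein of Rab5, had 11 members between 19990 and 49786 bp upstream (chr2:6272695-6302676). The 500-EMP list held 6 peaks in that span, of which 2 members met, 1 of them by only 1 bp. Gm30498, a lincRNA gene named after its values were seen, likewise had no start peak in either list, and its 10 members lay between 25917 and 48080 bp upstream with 1 recovered.

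**Figure D3:**
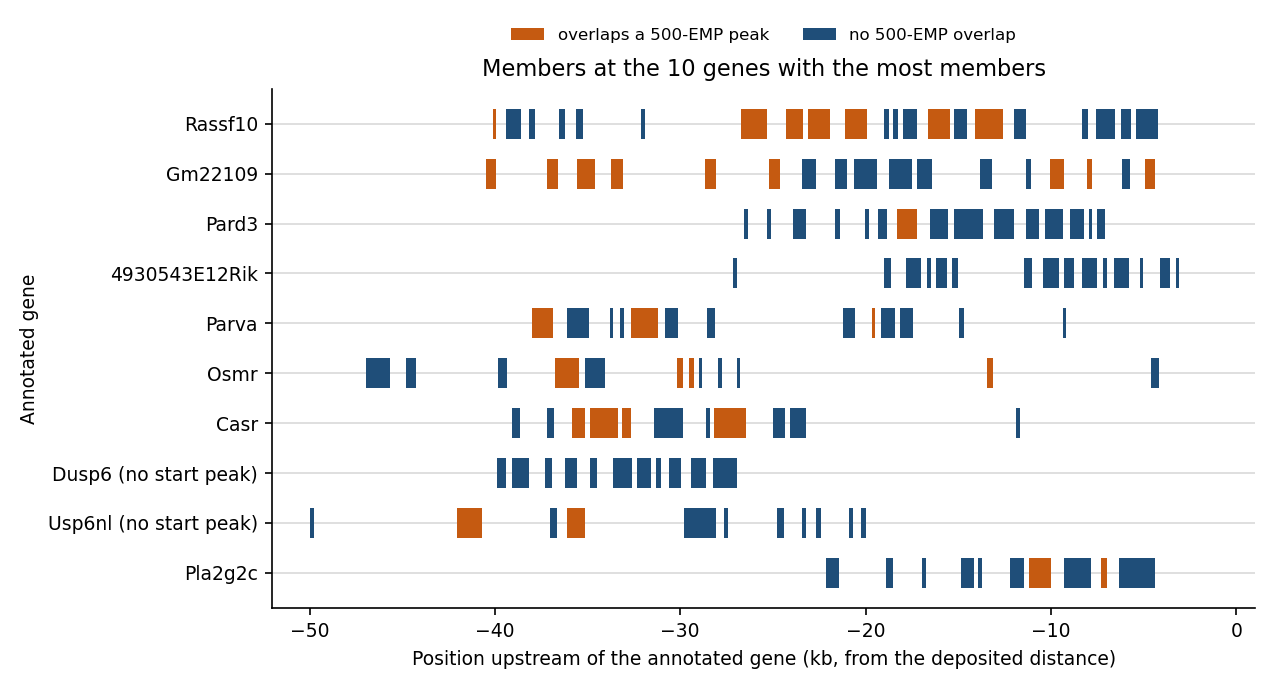
Members of the 10 genes with the most members, drawn to scale as bars at their position upstream of the annotated gene in kb, with members that overlap a 500-EMP peak in orange and the others in blue. Rassf10 has 21 members spread over its upstream side, while the 11 members of Dusp6 form 1 block that starts 26946 bp away and holds no orange bar.

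Gm22109, with 17 members of which 9 were recovered, was a different case. Its members lay in the 5S ribosomal RNA array of chromosome 8, where GENCODE lists 51 copies with gene starts a median of 1697.5 bp apart (chr8:123538786-123623745). The array held 30 members, annotated to Gm22109 (17), Rhou (10) and Gm25018 (3), and 15 of them overlapped a 5S gene. Their gene names are uncertain, since the copies are near-identical. Of the 30, 15 overlapped a 500-EMP peak (50%, 33.2 to 66.8%), against 308 of 2332 members elsewhere (13.2%).

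Repeated sequence reached beyond the array. Every member was cut into words of 31 bases, and the copies of each word in the reference chromosomes were counted. In 1371 members (58.0%) every word occurred once, whereas in 150 members (6.35%) under 50% of the words did. The share was 3.53% among upstream peaks within 3 kb, 3.32% among peaks inside genes and 4.17% among peaks over 50 kb from genes. Of the 150 members, 37 overlapped a 500-EMP peak (24.7%, 18.5 to 32.1%), against 286 of 2212 others (12.9%, 11.6 to 14.4%), a difference of 11.7 percentage points (95% Newcombe interval 5.36 to 19.3). Outside the 5S array it was 22 of 120 (18.3%, 12.4 to 26.2%), whose interval overlapped that of the 2212. The part that the placing of reads in repeated sequence had in these overlaps was not tested.

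Several named members lay in such copies. B020031M17Rik had 9 and Gm21188 had 5 members below the limit of 50%. The 1986 bp member of Gm21188 whose sequence is printed held every word of a 1951 bp member of B020031M17Rik (chr13:119995881-119997831), and both overlapped 1 peak of the 500-EMP list. Likewise, the 1877 bp member of Il11ra2 held every word of a Gm5859 member. Members of H2-Q6 and H2-Q10, class I genes of the major histocompatibility complex, were paired in the same way.

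Recovery means that a member overlapped a peak of the 500-EMP list by at least 1 bp. It was reached by 323 of 2362 members (13.7%, 12.3 to 15.1%), beside 16.0% over all 11231 autosomal peaks below 2000 bp. The overlaps were small. A recovered member was covered over a median of 215 bp, or 26.8% of its width, and 298 of the 323 met a single 500-EMP peak. Only 71 members were covered over at least 50% of their width. Recovery was spread over 239 of the 1098 genes.

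Width went along with recovery more than distance did. It was 5.93% (4.76 to 7.36%) below 500 bp, 13.8% (11.3 to 16.7%) in the middle class and 36.1% (31.7 to 40.6%) in the widest class, and the median width was 992 bp among recovered members and 416 bp among the others. A wider peak has more room to meet another. By distance it was 12.5% (9.64 to 16.1%) at up to 5 kb, 10.3% (8.04 to 13.1%) at over 5 to 10 kb, 15.2% (12.6 to 18.2%) at over 10 to 20 kb, 12.6% (9.58 to 16.3%) at over 20 to 30 kb and 18.3% (14.8 to 22.3%) at over 30 to 50 kb, with no steady order.

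Set against other narrow autosomal peaks, the members were recovered less often than upstream peaks within 3 kb, and within width classes this held only for the widest class. Against 1501 upstream peaks within 3 kb the difference was -4.91 percentage points over all widths (95% Newcombe interval -7.35 to -2.54). It was -0.0868 points (-2.46 to 2.03) below 500 bp, -1.01 points (-5.41 to 3.18) in the middle class and -7.37 points (-13.9 to -0.765) in the widest class. Against 2196 peaks inside genes and over 3 kb from their ends it was -0.214 points (-2.22 to 1.79), and the interval spanned 0 in every width class. Against 1366 peaks over 50 kb from a gene it was -0.161 points (-2.51 to 2.09), and below 500 bp the members were recovered more often by 2.08 points (0.0274 to 3.94). The start peak set the groups further apart: 62.6% of the members had one at their gene, against 88.6% of the upstream peaks within 3 kb, 75.9% of the peaks inside genes and 39.3% of those over 50 kb away. The interval of each difference excluded 0.

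Members whose gene had a start peak were recovered more often than members whose gene had none. The shares were 226 of 1478 (15.3%, 13.5 to 17.2%) and 97 of 883 (10.99%, 9.09 to 13.2%), a difference of 4.31 points (1.47 to 7.01), and the median widths were 447.5 and 468 bp. Within width classes the difference was 3.13 points (0.438 to 5.55) below 500 bp, 7.89 points (2.48 to 12.9) in the middle class and 6.76 points (-2.39 to 15.5) in the widest class, where the interval spanned 0. Members alone within 3 kb were recovered in 29 of 422 cases (6.87%, 4.83 to 9.70%) and those with a neighbouring peak in 294 of 1940 (15.2%, 13.6 to 16.8%). This last split was not repeated within width classes, so the part that width had in it was not tested.

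**Figure D4:**
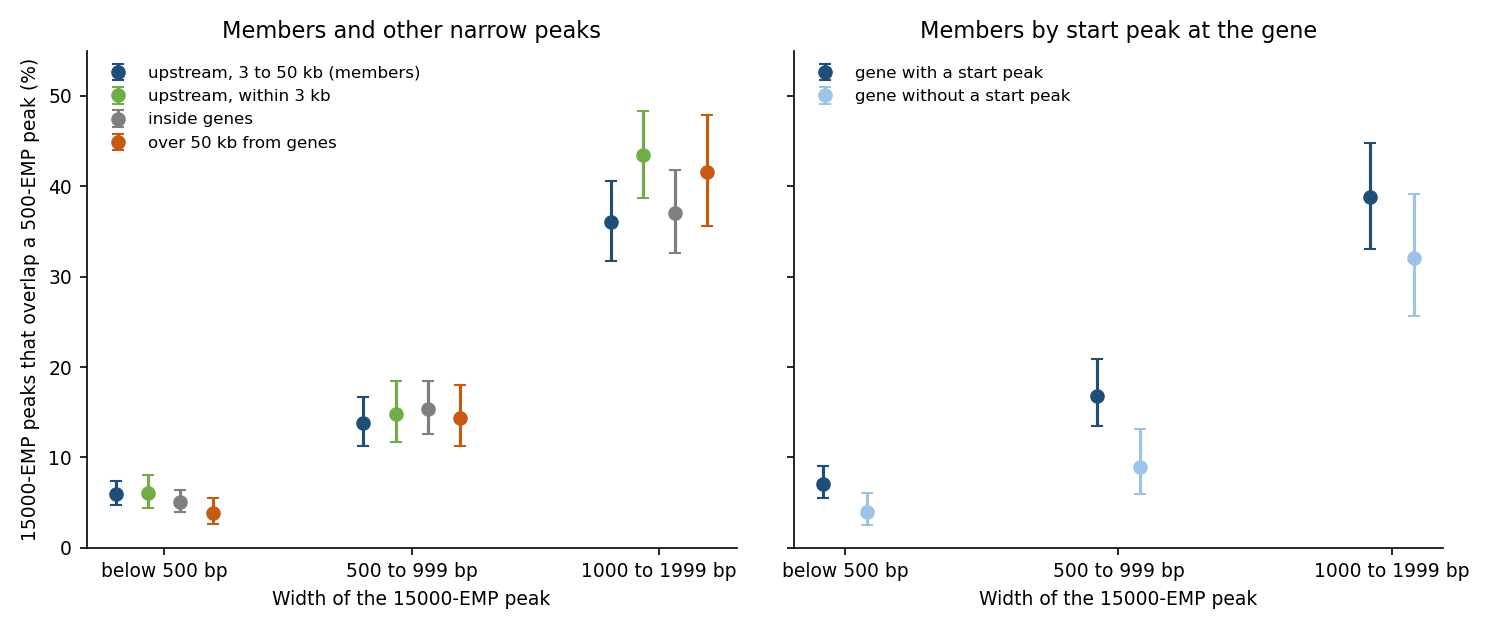
Percent of 15000-EMP peaks that overlap a 500-EMP peak in 3 width classes, with 95% Wilson intervals, for the members beside 3 other groups of narrow autosomal peaks (left) and for the members by start peak at the annotated gene (right). The members rise from 5.93% to 36.1% with width, and in every class those with a start peak at the gene lie above those without.

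The widest recovered members without a start peak at their gene overlapped peaks of the 500-EMP list as follows. After the 1989 bp member of Shkbp1 (chr7:27375118-27377106), which lay inside Sptbn4, a spectrin gene, came members of B020031M17Rik (1951 bp), Rptor (1931 bp), Gnasas1 (1891 bp), Mmel1 (1882 bp), Il11ra2 (1877 bp), Bcl11a (1853 bp), Gm13029 (1795 bp), Nsun2 (1778 bp) and U90926 (1776 bp). The Shkbp1 and U90926 members had the largest overlaps, with 750 and 746 bp covered by 500-EMP peaks, and the Il11ra2 member the smallest, with 137 bp. The members of B020031M17Rik and Il11ra2 had 0% of their words in a single place, with medians of 2 and 3 copies, so their position is uncertain. The member of Rptor, which encodes a subunit of the mTORC1 kinase complex, lay 8353 bp upstream and had 190 bp covered. Of the 10, 6 overlapped a protein-coding gene other than the annotated one. Beside those of Shkbp1 and Gnasas1, the members of Mmel1, Bcl11a, Gm13029 and U90926 lay in Ttc34, A830031A19Rik, Igsf21 and Ppef2.

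Of the 10 widest members, 5 were recovered (36.1% in the widest class) and 8 had a start peak at their gene. The widest, 4144 bp upstream of the microRNA gene Mir129-1 (chr6:29016479-29018474), was not recovered. Nor was that of Sirpa, the receptor of the CD47 signal, which was 1989 bp wide, had no start peak at its gene and lay 123472 bp from the nearest other peak. The members of Ncald (1983 bp), Lhx5 (1981 bp) and Six3os1 (1970 bp) were not recovered either, although each of these genes had a start peak in both lists. Those of Trp53i11, Shkbp1, Gm21188, 1700001K23Rik and Ecel1 were, with 715, 750, 282, 175 and 149 bp covered.

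Gene lists written from general knowledge showed which kinds of gene the members were annotated to. Over 20780 autosomal protein-coding gene names, 911 (4.38%) had a member. Among the 3635 of these names with a 15000-EMP start peak, 563 had a member, so the 4.38% is a low mark for lists rich in start peaks. Of 152 homeobox and other developmental transcription factors, 73 (48.0%) had 1 or more, 146 members in all. All of the 73 but Bcl11a had a start peak in both lists, but so had most of the list: 145 of the 152 (95.4%) had one by 15000-EMP peaks and 139 by 500-EMP peaks. Of the 146 members, 28 were recovered (19.2%, 13.6 to 26.3%), at 24 genes. That interval includes the 13.7% of all members. It does not include the 12.7% (11.3 to 14.3%) of the 1940 members at protein-coding genes, but the intervals overlapped. Ptf1a, a pancreatic and neural regulator, had 8 members at 5842 to 21239 bp, none recovered. Lhx5, Zic1, Gbx2, Pax2 and Tbx5 had 6 each, of which 2, 1, 1, 3 and 1 were recovered. At Lhx5 these reached from 6292 to 31964 bp upstream, and at Pax2, a regulator of kidney development, from 25263 to 45854 bp. The widest recovered members of the list, at Foxa2 (1895 bp, 5957 bp upstream) and Zfhx4 (1875 bp, 8858 bp upstream), had 356 and 137 bp covered.

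Hox genes held fewer, with 3 of 39 (7.69%) annotated to 9 members, although all 39 had a start peak in the 15000-EMP list. Hoxc13 had 5 members at 18567 to 24179 bp with 1 recovered, Hoxb2 had 3 at 4274 to 6111 bp, all inside Hoxb3 and none recovered, and Hoxb13 had 1 recovered member at 27906 bp.

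Of 62 genes of the Wnt pathway, 18 (29.0%) had 31 members, and all 18 had a 15000-EMP start peak, 11 of them also in the 500-EMP list. Over all 62 it was 54 (87.1%) and 39, so start peaks were common with or without a member. Among ligands, Wnt6 had 4 members at 3760 to 7310 bp, Wnt9a 3 and Wnt3a 2, none recovered, and the 2 at Wnt3a were 1933 and 1475 bp wide. Sfrp1, a secreted Wnt antagonist, had 5 at 9310 to 23311 bp, none recovered. Of the 31 members 4 were recovered (12.9%, 5.13 to 28.9%), close to the 13.7% of all members. These lay at Lef1 (1 of 3), a nuclear partner of beta-catenin, at the inhibitors Nkd1 and Notum (1 of 1 each) and at Wnt7b (1 of 1, 35526 bp upstream). Of 67 other secreted signals and antagonists, 9 (13.4%) had 17 members, among them Gdnf (4), Cxcl12 (3), Ihh, Sema3f and Nog (2 each), Nodal, Fgf15, Gdf6 and Fgf3. All 9 genes had a start peak in both lists, beside 52 (77.6%) by 15000-EMP peaks and 39 by 500-EMP peaks over all 67. Of the 17 members 0 were recovered, which allows a share of up to 17.6% and so includes the 13.7% of all members.

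Of 48 endothelial genes, 6 (12.5%) had 13 members, of which 2 were recovered (15.4%, 4.33 to 42.2%), close to the 13.7% of all members. Flt1, a receptor of vascular endothelial growth factor, had 4 at 22161 to 26529 bp, none recovered. Sox17, a transcription factor of arterial and hemogenic endothelium, had 3 at 6097 to 8538 bp with 1 recovered, and Nr2f2, a regulator of venous identity, 2 with 1 recovered. Unc5b and Col4a1 had 1 each, and Robo4, an endothelial guidance receptor, had 2 at 14584 and 16053 bp, both inside Hepacam. Robo4 was the 1 gene of the 6 with no start peak, and over all 48 genes 30 (62.5%) had one by 15000-EMP peaks and 17 by 500-EMP peaks.

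Of 48 hematopoietic genes, 6 (12.5%) had 12 members, and 4 of the 6 had a 15000-EMP start peak, beside 13 (27.1%) over all 48. Of the 12 members 5 were recovered (41.7%, 19.3 to 68.0%), beside 13.7% of all members. However, 3 of the 5 lay at Fcgr3, in sequence that occurs in several places. Fcgr3, which encodes the CD16 part of the gate used to sort EMPs, had no start peak in either list but 5 members at 9502 to 20681 bp (chr1:171074437-171087028). Of these, 3 were recovered, with 676, 189 and 148 bp covered. However, 4 of the 5, including all 3 recovered ones, had under 50% of their words in a single place of the genome (3.39 to 24.3%), so their position is uncertain. Bcl11a, a regulator of globin genes and lymphoid cells, also had no start peak, and 1 of its 3 members was recovered. That member was 1853 bp wide, lay 14505 bp upstream inside A830031A19Rik and had 95.7% of its words in a single place. Pax5, the regulator of B cells, had 1 recovered member of 1304 bp, and Gfi1, Bcl11b and Tcf7 had 1 each that was not recovered. Lists overlapped: Bcl11a, Bcl11b, Pax5 and Nr2f2 were also counted among the developmental factors, and Tcf7 in the Wnt pathway.

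Of 124 neuronal channels, receptors and adhesion genes, 8 (6.45%) had 19 members, although 97 of the 124 (78.2%) had a start peak. Of the 19 members 3 were recovered (15.8%, 5.52 to 37.6%), close to the 13.7% of all members. Scn8a, a sodium channel, had 7 and Kcnn3, a potassium channel, 5. None of 20 housekeeping genes had a member, which allows a share of up to 15%.

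The sorted cells were checked on marker genes. Of 12 EMP markers, among them Kit, Itga2b and Runx1, 0 had a start peak in either list, which allows up to 25%, and only Fcgr3 was annotated to members. The background of 17.5% over all genes lies below that limit. Start peaks stood at 5 of 10 endothelial markers, 4 of 5 mesenchymal, 2 of 5 primitive erythroid and 1 of 5 yolk sac endoderm markers in the 15000-EMP list. A missing H3K27me3 peak is no measure of expression.

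CG dinucleotides were nearly as frequent in the members as in peaks inside genes or over 50 kb from genes. The median observed-to-expected CpG ratio was 0.202 with quartiles of 0.116 and 0.316. It was 0.246 for upstream peaks within 3 kb, 0.217 inside genes and 0.215 over 50 kb from genes. Over all narrow autosomal peaks the median was 0.242, and no value was taken outside peaks. The median GC content was 47.4%. A 200 bp window with at least 50% GC and a ratio of at least 0.6 was present in 319 members (13.5%), against 22.5% of the upstream peaks within 3 kb, 13.6% of the peaks inside genes and 13.5% of those over 50 kb from genes. Over all 11231 narrow autosomal peaks it was 22.3%, and 35.8% among the narrow peaks in none of these groups. Within width classes the members and the upstream peaks within 3 kb stood at 4.45% and 7.82% below 500 bp, 16.4% and 22.2% in the middle class and 35.6% and 47.1% in the widest class. Members with such a window were recovered in 24.1% of cases and those without in 12.0%, but they were also wider, at medians of 996 and 411 bp. Within width classes the difference was 2.98 points (-2.20 to 13.2) below 500 bp, -2.80 points (-8.56 to 5.16) in the middle class and 3.36 points (-5.86 to 12.8) in the widest class, and each interval spanned 0.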

How the data were processed

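H3K27me3 CUT&RUN peaks of 2 libraries (500 and 15000 wild-type E10.5 yolk sac EMPs) were used. Per the labels and methods, the authors aligned reads to mm10 with Bowtie2 2.2.1 and called broad peaks with MACS2 2.1.2 against the IgG library of the same cell number, at p of 0.01 (500 EMPs) and 0.05 (15000 EMPs). A published listing of the commands names the libraries the other way round, and the lists were taken as labelled. The deposited peak lists used here hold peak positions, gene, category and distance, without read counts, and coverage tracks and reads were not analysed here.

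Positions are 1-based on GRCm38, and 0 peaks ran past a chromosome end. Genes are from GENCODE vM21, and sequences and repeat masking from RefSeq GRCm38.p6. Overlap was at least 1 bp. Shares carry 95% Wilson and differences 95% Newcombe intervals (statsmodels, Python), without p-values, since each group had 1 library. The code passed 11 checks on simulated data.

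Genes named are the 10 with the most members, the 10 widest members, the 10 widest recovered without a start peak, those at the limits and up to 8 members a gene list, and other listed genes, such as those with the most members, were picked after their values were seen. Sequence windows in an annotated UTR were passed over. The counts of repeated words, the 5S array and the chromosome 7 stretch were added after the data had been seen. Members and lists were chosen with earlier results of these data known. Alternatives are given at the end. IgG peaks were not used here. The sequence under the 5S array members is not reported here.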

Additional observations from a re-analysis of the deposited data

Results flagged for a closer look

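On chromosome X, which the rule leaves out, 23 peaks of the 15000-EMP list met the rest of the rule, at 16 genes. None overlapped a 500-EMP peak, which allows a share of up to 13.0% by the 3 counts that a 0 allows and up to 14.3% by the 95% Wilson interval. The 13.7% of the members lies between these limits, so 23 peaks are too few to tell whether chromosome X differs. Chromosome Y held 0.

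The 500-EMP list was used only as the set to be met. Under the same rule it held 1646 peaks of its own, of which 1451 (88.2%, 86.5 to 89.6%) overlapped some 15000-EMP peak but only 329 (19.99%) a member. The other 195, at 171 genes and with a median width of 137 bp, overlapped no 15000-EMP peak. No height or read count stands beside them, and their cause was not tested.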

How the results depend on the processing

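Of 47 alternatives, 31 left the value within the limits set, 16 moved it and none turned a difference whose interval excluded 0. The limits were the counting interval of the result, within 1.5 times for counts, and the members' quartiles for the CpG ratio. A median over part of the members could hardly leave those quartiles. Joining members within 3 kb gave 1369 regions in place of 2362. Recovery of 13.7% became 3.01% when at least 50% of the member had to be covered, 26.6% with a 500-EMP peak within 1 kb, 8.54% below 1000 bp, 19.1% for joined regions and 11.1% without the smallest 500-EMP peaks. The start-peak share of 62.6% became 39.0% for the start base itself, 58.0% for a 1 kb window, 52.9% with the 500-EMP list and 59.8% per gene. The recovery difference by start peak became 7.89 points from 500 bp to below 1000 bp. Against upstream peaks within 3 kb, the recovery difference became -0.0868, -1.01 and -7.37 points from the narrowest to the widest class, and against peaks over 50 kb from genes -5.58 points in the widest class. With a limit of 1 kb, chosen after seeing the data, 69.0% of members had a neighbouring peak in place of 82.1%. Leaving out the 5S array, repeated or masked members, also chosen after seeing the data, kept recovery between 12.9% and 13.9%. No paired analysis was possible because each group held 1 library and the labels gave no replicate numbers. Only peak lists were used, in which an absent overlap cannot be told from a missed one.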
